A study of Homo sapiens with 14 samples.

Results

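The 59 genes described here drive mitosis. All 59 were lower after knockdown of ZBP1 with each of 2 hairpins in each of 2 multiple myeloma cell lines, each against its own scramble group. In these comparisons 19.7% to 27.7% of all genes tested were lower. In the H929 line, shRNA2 set against the scramble of the other hairpin left 41 of 59 lower, against 21.9% of all genes. The 59 genes were chosen with earlier results of these data known. They were taken by gene symbol from both deposited expression tables, where all 59 were found among 58051 genes. By role they fell into 8 cyclin, CDK1 and mitotic entry genes, 10 genes of mitotic kinases and the chromosomal passenger complex, 9 of the spindle checkpoint, the anaphase-promoting complex (APC/C) and sister cohesion, 14 of the kinetochore and centromere, 10 kinesins, 6 of the spindle and cytokinesis, and 2 chromosome genes, TOP2A and MKI67. The genes lay on 19 chromosomes, with at most 8 on 1 chromosome.

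Mitosis begins when cyclin B and its kinase CDK1, released from inhibition by CDC25 phosphatases, phosphorylate proteins across the cell, and Polo-like and Aurora kinases then build the spindle. Kinetochores assemble on centromeres marked by the histone CENPA and hold spindle microtubules, the checkpoint delays anaphase until every kinetochore is attached, and APC/C with CDC20 then destroys securin and cyclin B, after which kinesins and midzone proteins divide the cell. Most of these transcripts are made in G2 and mitosis in cycling cells, so they are widely used as a measure of proliferation, in myeloma as in other tumours.

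MM1.S and H929 are established human myeloma lines. ZBP1, which senses Z-form nucleic acids in the cytosol, was depleted by short hairpin RNAs to ask what its loss does to the transcriptome of these cells. All cells grew in RPMI with 10% FBS and carried a lentivirus, and RNA was poly(A)-selected before sequencing. There were 14 libraries, 2 for each of 7 groups. The MM1.S groups were a scramble hairpin, shRNA1 against ZBP1 and shRNA2 against ZBP1, so that both hairpins share 1 scramble group. The H929 groups were shRNA1, shRNA2, a scramble control for shRNA1 and a separate scramble control for shRNA2. Whether the replicates were separate cultures is not stated, and p-values here measure the spread between the libraries of a group only, which may be technical. The time between transduction and harvest is not given in the sources used here.

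Reads assigned to genes numbered 20.46 to 28.42 M per MM1.S library and 15.93 to 22.25 M per H929 library. ZBP1 stood at 138 and 146 CPM (read counts scaled to library size, here with TMM) in MM1.S scramble, and the hairpins took it to 22.2 and 26.3 (shRNA1) and to 14.8 and 18.0 (shRNA2). In H929 it stood at 4269 and 4513 normalized counts in the scramble for shRNA1 against 1659 and 1888 with shRNA1, and at 3449 and 3729 in the scramble for shRNA2 against 1230 and 1110 with shRNA2. ZBP1 was thus lower in every knockdown library than in any scramble library of its line. The summed level of 8 plasma cell markers was 3693 to 7567 CPM in all groups, with its lowest range, 3693 to 3954, in MM1.S with shRNA2. The T cell, myeloid, stromal and erythroid lists summed to at most 35.0 CPM in any library. Of these, 4 myeloid markers summed to 19.6 to 24.1 CPM in MM1.S with shRNA1 against 1.28 to 2.39 in its scramble, 4 stromal markers to 29.8 to 35.0 in H929 with shRNA1 against 1.48 to 1.49, and 4 T cell markers to 24.5 to 31.7 in H929 with shRNA2 against 7.35 to 8.06. The 3 erythroid markers summed to 0.0449 to 7.28 CPM in all libraries. The part of these markers in the results below was not tested. The MAF gene, the translocation target of MM1.S, stood at 1440 and 1487 CPM in its scramble libraries, and FGFR3, that of H929, below 1 CPM in every MM1.S library. In H929 FGFR3 stood at 1147 and 1156 CPM in the scramble for shRNA1, 367 and 335 with shRNA1, 441 and 483 in the scramble for shRNA2 and 979 and 978 with shRNA2. For this gene each hairpin group lay closer to the scramble of the other hairpin. WHSC1, also listed as a translocation target, stood at 1056 and 1065, 1219 and 1197, 914 and 934, and 1261 and 1276 CPM in that order. Its shRNA1 libraries lay closer to their own scramble and its shRNA2 libraries closer to the other. The marker sums and the values of MAF, FGFR3 and WHSC1 are in CPM without TMM scaling.

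The mitotic genes took up under 1% of every library and several-fold less after knockdown. Their summed reads were 0.906% and 0.784% of the reads in genes in MM1.S scramble, against 0.152% and 0.155% under shRNA1 and 0.132% and 0.125% under shRNA2. In H929 the share was 0.178% and 0.191% in the scramble for shRNA1 and 0.0371% and 0.0454% with shRNA1, and it was 0.421% and 0.406% in the scramble for shRNA2 and 0.116% and 0.126% with shRNA2. Both knockdown groups of each line lay below every scramble library of that line, and the scramble groups of H929 did not overlap each other. In RNA from whole cultures, fewer cells in mitosis and less RNA of these genes per cell cannot be told apart. The mitochondrial share of reads was 9.87% to 10.2% in MM1.S scramble and 11.6% to 12.1% under the hairpins. In H929 it was 6.63% to 7.22% in scramble, 5.98% to 6.34% under shRNA1 and 8.72% to 8.80% under shRNA2, and its part in the results was not tested.

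**Figure D1:**
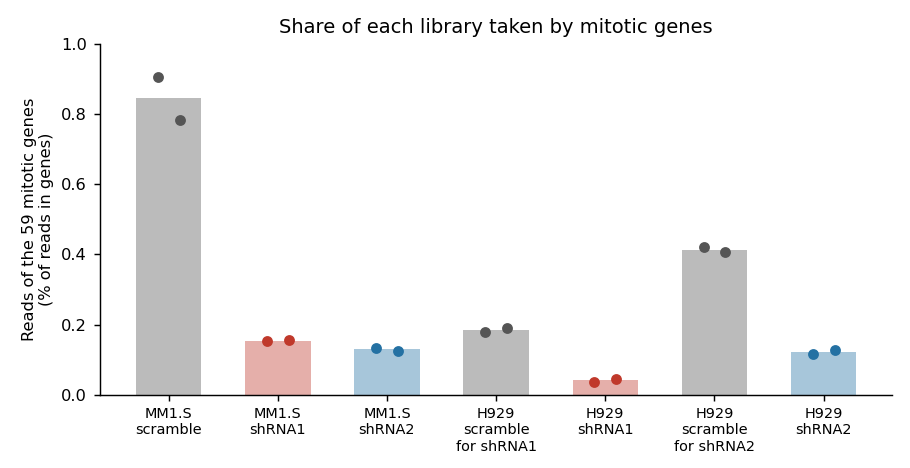
Share of reads in genes that came from the 59 mitotic genes (y axis, %), for the 7 groups (bars, mean of 2 libraries; points, single libraries). The MM1.S scramble libraries sit at 0.784% and 0.906%, and the H929 scramble for shRNA2 sits above the H929 scramble for shRNA1.

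Every one of the 59 genes, chosen with earlier results of these data known, passed the test of each hairpin against its own scramble group, in the lower direction. In MM1.S, edgeR's quasi-likelihood test called 59 of 59 lower with shRNA1, where it called 19.7% of 17820 genes lower, with a median log2 fold change of -2.69 (15.5% of the scramble level). With shRNA2 it again called 59, against 21.7% of genes, at a median of -2.88 (13.6% left). In H929, limma on log2(normalized count + 1) called 59 lower with shRNA1 against its own scramble, where it called 27.7% of 18213 genes lower, at a median of -3.15 (11.2% left). With shRNA2 against its own scramble it called 59, against 25% of genes, at a median of -2.11 (23.1% left). The median over all genes tested was within 0.03 of 0 in each of these comparisons. The highest adjusted p among the 59 was 0.000742 (CENPK) and 0.000566 (BUB3) with shRNA1 and shRNA2 in MM1.S (edgeR), and 0.00335 (ECT2) and 0.000459 (KIF18A) in H929 (limma). For all 59 genes both knockdown libraries lay below both scramble libraries in each of the 4 comparisons. Over all genes with at least 10 reads (MM1.S) or a normalized count of at least 10 (H929) in 2 libraries this held for 28.5% and 32.1% in MM1.S and for 38.4% and 39.2% in H929. For all genes in MM1.S this used CPM without TMM scaling, unlike the levels of the 59.

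All 7 roles fell. With shRNA1 in MM1.S the median log2 fold change of the 7 subgroups ran from -2.41 for spindle and cytokinesis genes to -2.84 for kinases, and with shRNA2 from -2.78 for cyclins, CDK1 and mitotic entry to -3.25 for the 2 chromosome genes. In H929 on the log2(value + 1) scale it ran from -2.76 (spindle and cytokinesis) to -3.72 (chromosome) with shRNA1, and from -1.93 (kinases) to -2.42 (chromosome) with shRNA2. Kinetochore genes had medians of -2.55 and -2.88 in MM1.S and -3.30 and -2.12 in H929, and kinesins -2.58 and -2.94, then -3.44 and -2.16. These medians differed less between subgroups than single genes differed within the kinases in H929, where shRNA1 left NEK2 at -3.96 and BUB1 at -1.08. Differences between subgroups were not tested.

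**Figure D2:**
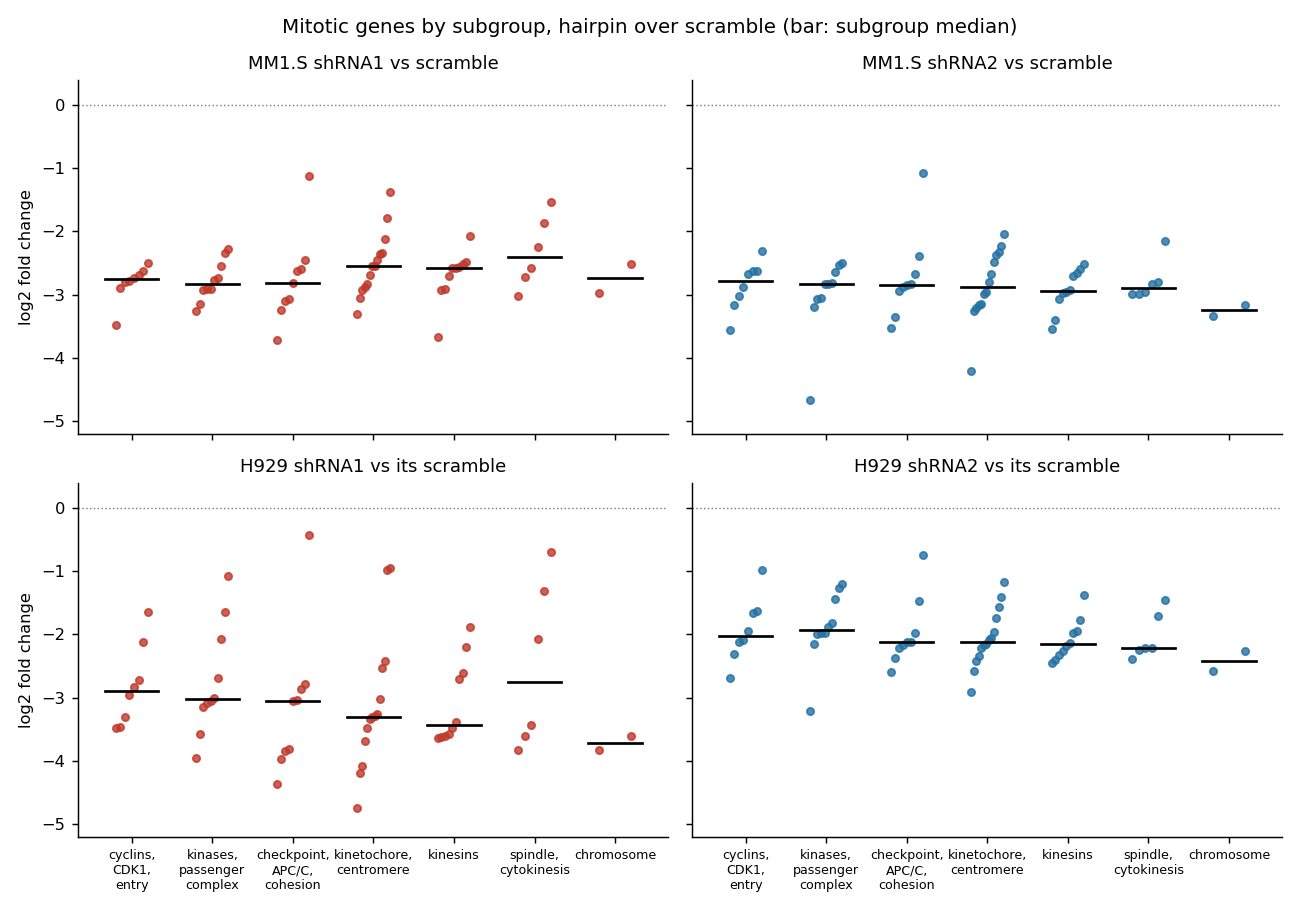
Log2 fold change of each of the 59 genes (points) by subgroup, for each hairpin against its own scramble in MM1.S (edgeR) and H929 (limma, log2(value + 1) scale); bars mark subgroup medians. All points lie below 0, and BUB3 is the highest in each comparison.

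The promoters of many of these genes share short elements, shown here for CCNB2, PLK1, CENPA and KIF20A, of 4 different roles, and for ECT2, which fell least of the spindle and cytokinesis genes by mean. The RefSeq table of promoters (GRCh38.p14; 250 bases before to 50 after each start) had entries for 52 of the 59 genes, in 65 windows. The letters TTTGAA or TTCGAA, the core of the cell-cycle homology element bound by the DREAM and MuvB complexes, occurred on either strand in 45 of 65 windows (69.2%), against 16.4% of all 35116 windows. CCAAT, the box bound by NF-Y, occurred on either strand in 72.3% against 34.6%, and at 2 or more places in 43.1% against 10.8%. The motifs shared bases in 2 of the 65 windows. Each stretch below is 130 bases of the plus strand ending just before the transcript start that the RefSeq table gives, with the gene also on the plus strand and with TTTGAA or TTCGAA and also CCAAT in capitals in either orientation (ATTGG is CCAAT on the other strand). They lie at chr15:59105016-59105145 (CCNB2, cyclin B2), chr16:23678759-23678888 (PLK1), chr2:26785926-26786055 (CENPA), chr5:138178982-138179111 (KIF20A) and chr3:172750596-172750725 (ECT2, the first of 2 entries). In GENCODE 29 the annotated genes PLK1, CENPA and KIF20A begin upstream of these stretches, so there the stretch lies within the annotated gene, and CCNB2 and ECT2 begin within their stretches.
CCNB2: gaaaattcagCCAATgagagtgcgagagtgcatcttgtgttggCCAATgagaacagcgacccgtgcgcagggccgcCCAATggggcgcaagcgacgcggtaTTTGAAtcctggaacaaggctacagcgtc
PLK1: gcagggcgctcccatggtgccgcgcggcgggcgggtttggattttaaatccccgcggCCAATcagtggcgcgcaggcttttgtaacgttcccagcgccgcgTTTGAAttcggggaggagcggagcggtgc
CENPA: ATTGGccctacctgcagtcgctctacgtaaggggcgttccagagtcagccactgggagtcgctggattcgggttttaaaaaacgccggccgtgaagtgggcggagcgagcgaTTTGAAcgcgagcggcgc
KIF20A: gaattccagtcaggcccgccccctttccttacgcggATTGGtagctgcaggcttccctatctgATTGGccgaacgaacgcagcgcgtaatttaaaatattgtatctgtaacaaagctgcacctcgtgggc
ECT2: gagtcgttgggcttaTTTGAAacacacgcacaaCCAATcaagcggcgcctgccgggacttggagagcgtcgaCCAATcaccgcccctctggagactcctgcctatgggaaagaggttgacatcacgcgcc

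CCNB2, PLK1, CENPA and ECT2 each held a TTTGAA in the stretch, and KIF20A held neither TTTGAA nor TTCGAA there. CENPA and KIF20A held CCAAT in reverse orientation only. A match is a stretch of letters, not a shown binding site. The 41 genes with TTTGAA or TTCGAA in a window and the 11 without had median log2 fold changes of -2.68 and -2.69 with shRNA1 and -2.95 and -2.68 with shRNA2 in MM1.S, and of -3.05 and -3.30 and -2.12 and -2.10 in H929. Genes with and genes without the element both fell, and the difference between their medians was not tested.

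Genes of mitotic entry fell with each hairpin against its own scramble, CDK1 and cyclin B1 most and the phosphatase CDC25B least by mean. CCNB1, the cyclin that activates CDK1 at mitosis, stood at 193 and 162 CPM in MM1.S scramble; shRNA1 libraries read 14.2 and 17.8, and shRNA2 libraries 19.0 and 20.7. In H929 it stood at 956 and 1066 normalized counts in the scramble for shRNA1 against 94.3 and 110 with shRNA1, and at 2938 and 3004 in the scramble for shRNA2 against 671 and 718 with shRNA2. All knockdown libraries were low, and no group overlapped its scramble. The log2 fold changes were -3.48 ± 0.17 (SE here and below) and -3.16 ± 0.16 in MM1.S and -3.30 ± 0.11 and -2.10 ± 0.11 in H929. For edgeR the SE was calculated as the absolute log2 fold change divided by the square root of the F statistic. CDK1 had the lowest mean fold change of the subgroup, with 222 and 164 CPM in MM1.S scramble, 26.7 and 25.0 with shRNA1 and 18.7 and 14.02 with shRNA2. Its H929 libraries read 199 and 228 in the scramble for shRNA1, 13.2 and 24.9 with shRNA1, 568 and 547 in the scramble for shRNA2 and 90.8 and 80.0 with shRNA2. The fold changes of CDK1 were -2.90 ± 0.20 and -3.56 ± 0.21 in MM1.S and -3.48 ± 0.22 and -2.70 ± 0.22 in H929. CDC25B, which removes the inhibitory phosphates from CDK1, kept more of its level in H929, at 1051 and 1295 in the scramble for shRNA1, 355 and 391 with shRNA1, 1964 and 2169 in the scramble for shRNA2 and 1123 and 973 with shRNA2. Its changes were -1.64 ± 0.11 and -0.98 ± 0.11 in H929 but -2.50 ± 0.16 and -2.68 ± 0.16 in MM1.S.

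Among the kinases and the passenger complex, all 10 genes fell with each hairpin against its own scramble, BIRC5 most and BUB1 least by mean. PLK1, the Polo kinase of centrosome maturation and mitotic exit, stood at 186 and 196 CPM in MM1.S scramble, 18.7 and 24.3 with shRNA1 and 18.2 and 23.5 with shRNA2. The H929 libraries had 641 and 769 in the scramble for shRNA1, 110 and 105 with shRNA1, 1655 and 1814 in the scramble for shRNA2 and 457 and 484 with shRNA2. The hairpin groups overlapped each other in MM1.S, where the PLK1 changes were -3.15 ± 0.18 and -3.19 ± 0.18, and the H929 changes were -2.70 ± 0.11 and -1.88 ± 0.11. BIRC5 encodes survivin, the passenger complex subunit that also restrains apoptosis. It stood at 145 and 141 CPM in MM1.S scramble, 17.8 and 24.4 with shRNA1 and only 5.39 and 5.79 with shRNA2, fold changes of -2.76 ± 0.17 and -4.67 ± 0.19. In H929 it read 414 and 513, then 30.6 and 46.0 with shRNA1, and 1005 and 1102, then 99.2 and 129 with shRNA2 (-3.58 ± 0.19 and -3.21 ± 0.19). In MM1.S the shRNA2 libraries held less BIRC5 than the shRNA1 libraries, with no overlap. AURKB, the catalytic subunit of the same complex, stood at 93.9 and 97.6 CPM in MM1.S scramble, 11.4 and 17.3 with shRNA1 and 12.01 and 15.0 with shRNA2, and its hairpin groups overlapped.

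AURKA, the kinase of the spindle poles, stood at 98.6 and 85.9 CPM in MM1.S scramble, 11.8 and 12.7 with shRNA1 and 16.0 and 16.8 with shRNA2 (-2.91 ± 0.14 and -2.49 ± 0.14). Its H929 levels were 653 and 691 in the scramble for shRNA1, 170 and 149 with shRNA1, 1547 and 1600 in the scramble for shRNA2 and 670 and 692 with shRNA2 (-2.07 ± 0.10 and -1.21 ± 0.10). The H929 shRNA2 libraries overlapped the scramble for shRNA1, although they lay well below their own. BUB1, a checkpoint kinase at kinetochores, had the smallest mean fall of the subgroup. It stood at 406 and 305 CPM in MM1.S scramble, 73.8 and 72.9 with shRNA1 and 41.5 and 43.0 with shRNA2. In H929 it read 1001 and 1228 in the scramble for shRNA1 and 447 and 612 with shRNA1, then 2488 and 2401 in the scramble for shRNA2 and 650 and 743 with shRNA2. The H929 fall was -1.08 ± 0.13 with shRNA1 and -1.81 ± 0.13 with shRNA2, against -2.28 ± 0.16 and -3.07 ± 0.16 in MM1.S. NEK2, a centrosome kinase, showed the widest gap between H929 hairpins among the kinases, with 355 and 545 against 20.7 and 35.9 with shRNA1 and 879 and 839 against 329 and 388 with shRNA2 (-3.96 ± 0.22 and -1.26 ± 0.22).

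The checkpoint and APC/C genes held both the strongest and the weakest of all falls in MM1.S with shRNA1. CDC20, the activator of APC/C, stood at 120 and 116 CPM in MM1.S scramble, 6.71 and 11.3 with shRNA1 and 15.7 and 16.9 with shRNA2. In H929 it read 489 and 588 in the scramble for shRNA1, 31.4 and 35.0 with shRNA1, 1531 and 1659 in the scramble for shRNA2 and 327 and 414 with shRNA2. The shRNA1 libraries were the lowest in both lines, and the fold changes were -3.72 ± 0.23 and -2.85 ± 0.22 in MM1.S and -3.98 ± 0.14 and -2.11 ± 0.14 in H929. CDCA5 (sororin), which protects sister cohesion, had the lowest mean of the subgroup, with 239 and 235 CPM in MM1.S scramble against 20.8 and 29.5 with shRNA1 and 22.0 and 24.1 with shRNA2. BUB3, a checkpoint scaffold, had the smallest fall of the 59 genes in each of the 4 comparisons. Its MM1.S levels were 299 and 256 CPM in scramble and 132, 124, 132 and 132 in the 4 knockdown libraries (-1.12 ± 0.13 and -1.07 ± 0.12). In H929 it went from 1690 and 1872 to 1253 and 1384 with shRNA1 and from 2722 and 2612 to 1602 and 1570 with shRNA2 (-0.43 ± 0.09 and -0.75 ± 0.09, limma adjusted p = 0.000633 and 5.97e-06). Each knockdown group of BUB3 still lay below its own scramble without overlap. PTTG1, which encodes securin, fell from 68.4 and 58.8 CPM to 10.6 and 10.5 with shRNA1 and 12.2 and 12.2 with shRNA2 in MM1.S. In H929 PTTG1 went from 422 and 525 to 53.7 and 58.9 with shRNA1 and from 784 and 744 to 258 and 291 with shRNA2.

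At the kinetochore the histone CENPA fell furthest and CENPN least on average. CENPA, which marks the centromere, stood at 32.0 and 27.2 CPM in MM1.S scramble, 2.72 and 3.26 with shRNA1 and 1.18 and 2.01 with shRNA2 (-3.31 ± 0.25 and -4.21 ± 0.26). Its H929 levels were 105 and 118 against 5.79 and 10.1 with shRNA1, and 268 and 266 against 34.5 and 34.6 with shRNA2 (-3.69 ± 0.25 and -2.91 ± 0.25). Every CENPA knockdown library lay far below its scramble, at few reads, with 7 reads in H929 shRNA1 replicate 1. An exon of CENPA overlaps one of SLC35F6 on the same strand. CENPN, a reader of CENPA nucleosomes, went from 34.5 and 26.0 CPM to 11.6 and 11.6 with shRNA1 and 5.86 and 5.83 with shRNA2 in MM1.S, and in H929 from 171 and 156 to 81.0 and 83.8 and from 354 and 362 to 149 and 122. Its fold changes were -1.38 ± 0.17, -2.37 ± 0.18, -0.98 ± 0.15 and -1.40 ± 0.15 in that order. NDC80, the main microtubule coupler, stood at 85.2 and 70.9 CPM in MM1.S scramble, 15.2 and 13.3 with shRNA1 and 17.1 and 14.2 with shRNA2, fold changes of -2.45 ± 0.17 and -2.32 ± 0.16. In H929 NDC80 read 394 and 417 against 84.3 and 67.2 with shRNA1 and 964 and 942 against 402 and 445 with shRNA2, where its change of -1.17 ± 0.13 was the smallest of the 14 kinetochore genes. SPC25, a subunit of the same complex, had the lowest fold change of all 59 genes in H929 with shRNA1, -4.74 ± 0.29, but this rested on 1 and 2 reads in the shRNA1 libraries. SKA3 had 8 and 7 reads there, and all other genes and libraries had at least 10 reads apart from the CENPA library above.

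All 10 kinesins fell, KIF20A most and KIF20B least by mean. KIF20A (MKLP2), which carries the passenger complex to the spindle midzone, stood at 70.0 and 59.9 CPM in MM1.S scramble, 4.62 and 5.65 with shRNA1 and 5.73 and 5.34 with shRNA2, fold changes of -3.66 ± 0.17 and -3.55 ± 0.17. In H929 it read 384 and 425 against 19.8 and 51.6 with shRNA1 and 1135 and 1146 against 207 and 207 with shRNA2 (-3.61 ± 0.27 and -2.46 ± 0.27). The shRNA1 libraries of H929 lay furthest apart, and both were below every other H929 library. KIF20B, a kinesin of cytokinesis, went from 121 and 82.1 CPM to 19.5 and 16.7 and to 20.8 and 14.5 in MM1.S, changes of -2.48 ± 0.24 and -2.52 ± 0.24, and changed by -1.89 ± 0.15 and -1.78 ± 0.15 in H929. KIF11 (Eg5), which pushes spindle poles apart and is the target of several antimitotic drugs, stood at 240 and 196 CPM in MM1.S scramble, 55.1 and 49.1 with shRNA1 and 38.9 and 33.8 with shRNA2. Its H929 levels were 551 and 541 against 103 and 137, and 1488 and 1307 against 348 and 371. KIF11 had the smallest fall of the 10 kinesins in MM1.S with shRNA1, at -2.07 ± 0.15.

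Of the spindle and cytokinesis genes, ASPM fell most and ECT2 least by mean. TPX2, the activator of AURKA on spindle microtubules, stood at 277 and 230 CPM in MM1.S scramble, 29.4 and 33.2 with shRNA1 and 30.2 and 33.5 with shRNA2. In H929 TPX2 read 1096 and 1272 against 90.9 and 128 with shRNA1 and 3171 and 3135 against 976 and 949 with shRNA2 (-3.44 ± 0.13 and -1.71 ± 0.13). ASPM, which focuses spindle poles, went from 523 and 360 CPM to 73.0 and 61.3 and to 61.8 and 49.1 in MM1.S. PRC1, the crosslinker of midzone microtubules, had a smaller fall with shRNA1 than with shRNA2 in MM1.S, while its H929 levels with the hairpins overlapped. It stood at 134 and 122 CPM in MM1.S scramble, 34.8 and 35.4 with shRNA1 and 16.0 and 16.9 with shRNA2, and its H929 levels were 835 and 953 against 353 and 362 with shRNA1 and 1804 and 1767 against 325 and 354 with shRNA2. ECT2, the exchange factor that activates RhoA for the cleavage furrow, read 105 and 75.8 CPM in MM1.S scramble, 32.8 and 29.4 with shRNA1 and 22.3 and 18.1 with shRNA2. In H929 it read 240 and 231 against 184 and 115 with shRNA1 and 507 and 446 against 177 and 169 with shRNA2. The shRNA1 libraries of ECT2 were far apart; without replicate 2 of H929 shRNA1 the fall was -0.36 in place of -0.69 ± 0.18, with a limma adjusted p of 0.0555 in place of 0.00335.

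TOP2A, the topoisomerase that untangles sister chromatids, and MKI67, which coats mitotic chromosomes and encodes the Ki-67 antigen, fell with both hairpins in both lines against the own scramble. Per kilobase of exon, TOP2A was among the 5 highest of the 59 genes in each scramble group, with NUSAP1, UBE2C, TPX2 and CCNB1, and MKI67 ranked 6 in MM1.S scramble and 26 and 16 in the H929 scrambles for shRNA1 and shRNA2. TOP2A stood at 690 and 500 CPM in MM1.S scramble, 107 and 101 with shRNA1 and 65.0 and 53.1 with shRNA2, and MKI67 at 882 and 808, then 99.1 and 117, then 90.5 and 97.8. In H929 TOP2A read 1885 and 2431 against 123 and 248 with shRNA1 and 5316 and 5109 against 870 and 880 with shRNA2. MKI67 read 1711 and 1539 against 89.3 and 143, and 4761 and 4871 against 939 and 1066. Both genes were lower in every knockdown library than in any scramble library of the line.

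**Figure D3:**
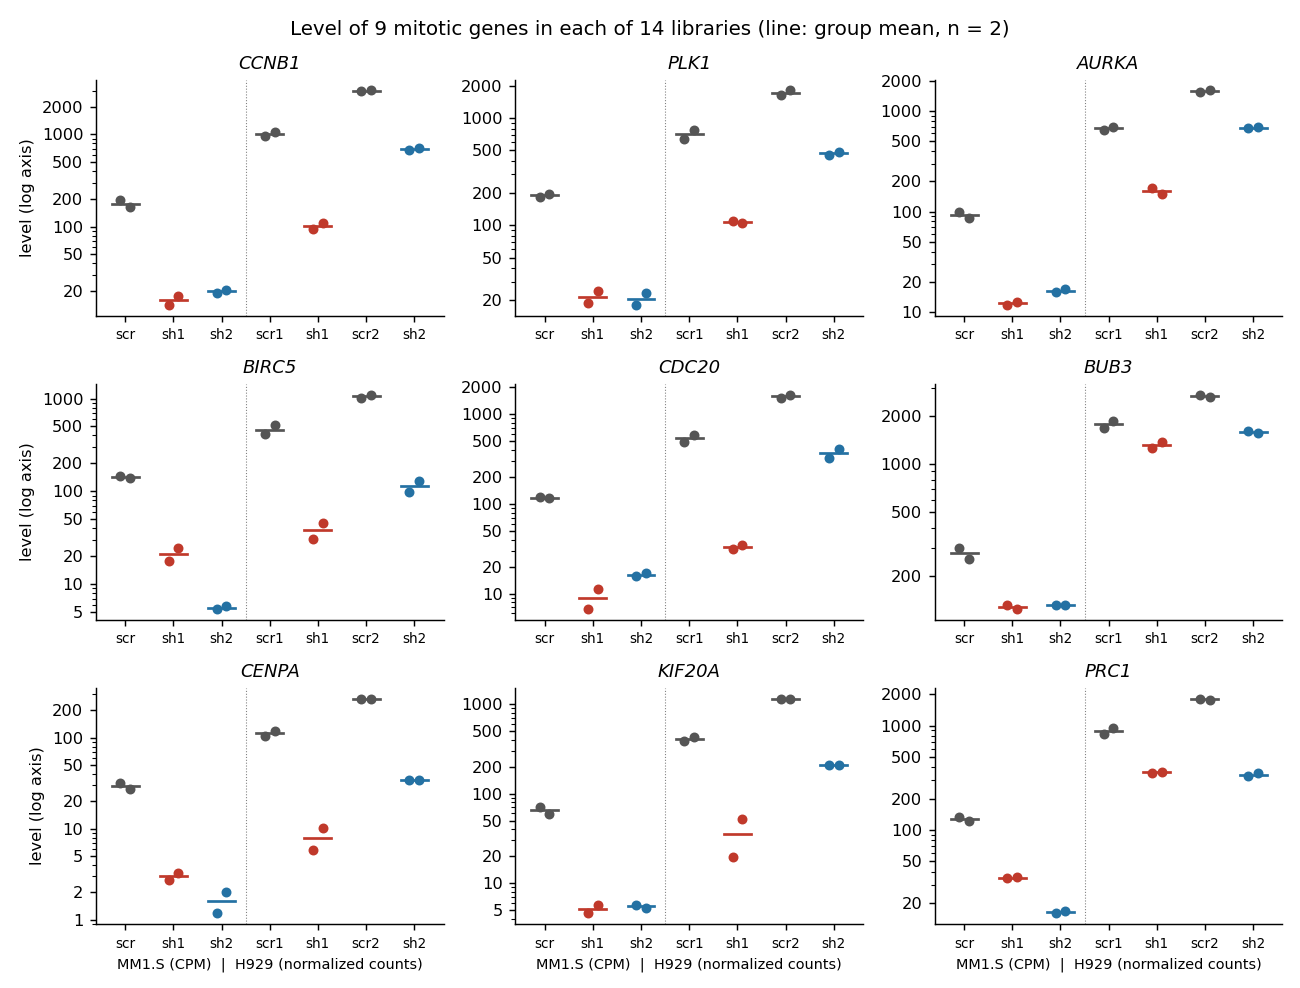
Level of 9 mitotic genes in each of the 14 libraries (points; lines, group means), in CPM for MM1.S and normalized counts for H929, on log axes; scr, scramble; sh1 and sh2, the hairpins; scr1 and scr2, the H929 scrambles for shRNA1 and shRNA2. Units differ between the lines, so only levels within a line compare; AURKA in H929 with shRNA2 sits level with scr1 at 670 and 692.

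The H929 scramble groups themselves differed in these genes. All 59 were higher in the scramble for shRNA2 than in the scramble for shRNA1 (limma), where 16.8% of genes were higher, at a median log2 difference of 1.35 on the log2(value + 1) scale, from 0.58 for BUB3 to 1.96 for SKA3. For all 59 the libraries did not overlap, which held for 34.2% of all genes. SKA3, a kinetochore coupling subunit, read 80.8 and 65.7 in the scramble for shRNA1 and 280 and 291 in that for shRNA2. The next largest differences were those of ZWINT (1.74 ± 0.33), TTK (1.67 ± 0.28), TRIP13 (1.65 ± 0.16) and CDC25A (1.61 ± 0.18), genes of the kinetochore, the checkpoint and mitotic entry. Each H929 hairpin was therefore also set against the other scramble group, which shares its libraries with the comparison of the scramble groups.

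With shRNA1, limma called all 59 genes lower against the other scramble as well, where 32.4% of genes were called, at a median of -4.65 (3.97% left). With shRNA2 it called 41 of 59 lower and 0 higher (0 also at an unadjusted p under 0.05) against the scramble for shRNA1, where 21.9% of genes were lower and 17.6% higher, at a median of -0.67 (62.7% left). The difference was above 0 for 2 genes, NDC80 (0.06 ± 0.13, adjusted p = 0.743) and AURKA (0.02 ± 0.10, adjusted p = 0.9), by limma. Of the 59, 7 lay at or below -1, led by BIRC5 (-2.02 ± 0.19, limma adjusted p = 6.66e-07) and CENPA (-1.66 ± 0.25, 7.93e-05), then PRC1 (-1.39 ± 0.10), CDK1 (-1.31 ± 0.22) and TOP2A (-1.29 ± 0.21). By role, 6 of 8 entry genes, 6 of 10 kinase and passenger genes, 7 of 9 checkpoint genes, 8 of 14 kinetochore genes, 8 of 10 kinesins, 4 of 6 spindle genes and both chromosome genes passed. In 52 of 59 genes both shRNA2 libraries lay below both libraries of that scramble, against 37.1% of all genes; the libraries of CDC25B, AURKA, NEK2, CENPF, NDC80, ZWINT and KIF18A overlapped. Leaving out 1 library lowered the count of 41 to between 30 (without shRNA2 replicate 1) and 37, and no filter on low genes gave 32. Of the genes given above, CDC20 (-0.54 ± 0.14) and KIF20A (-0.96 ± 0.27) no longer passed without shRNA2 replicate 1 or without replicate 2 of that scramble.

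**Figure D4:**
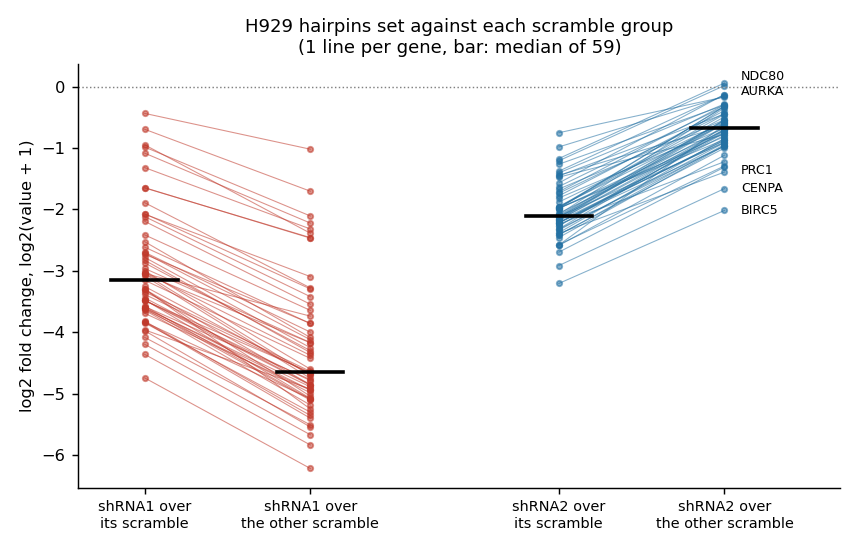
Log2 fold change of each gene with each H929 hairpin against its own scramble and against the other scramble (limma, log2(value + 1) scale). With shRNA2 the median moves from -2.11 to -0.67, and AURKA and NDC80 lie at 0.02 and 0.06.

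In MM1.S the test of shRNA2 against shRNA1 passed for a minority of the genes. Against shRNA1, shRNA2 left 15 of 59 lower and 2 higher (edgeR; 20.4% and 16.4% of all genes), at a median of -0.21; with the replicate number as a block, as the pairing of MM1.S libraries allows, these were 23 and 6. BIRC5 (-1.91 ± 0.18, edgeR adjusted p = 0.000286), PRC1 (-1.09 ± 0.12, 0.000553), CENPN (-0.99 ± 0.18, 0.00425), MAD2L1 (-0.90 ± 0.17, 0.0055) and CENPA (-0.90 ± 0.27, 0.0345) were lowest. MAD2L1, a checkpoint protein that inhibits CDC20, read 26.2 and 23.8 CPM with shRNA1 and 13.0 and 13.7 with shRNA2. CDC20 (0.87 ± 0.22, adjusted p = 0.0181) and AURKA (0.42 ± 0.14, 0.0434) were higher with shRNA2 by edgeR. Without any 1 of the 4 hairpin libraries the lower count was 6 to 8 and AURKA no longer passed. CDC20 did not pass without 3 of these 4, the exception being shRNA1 replicate 2, and CENPA did not pass without shRNA1 replicate 1, shRNA1 replicate 2 or shRNA2 replicate 1.

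In H929, where the hairpins share no control, the difference of their effects was tested directly. By limma 40 of 59 genes fell less with shRNA2 than with shRNA1, and 4 fell more (20% and 21.9% of all genes), each against its own scramble, at a median difference of 1.08. With the mean of both scramble groups for both hairpins the control cancels, so shRNA2 was compared directly with shRNA1, at a median of 2.45. That value is not corrected for the difference between the scramble groups. With the groups exchanged the median was 3.73. SPC25 (2.78 ± 0.41), NEK2 (2.70 ± 0.31), UBE2C (2.19 ± 0.36), CDC20 (1.86 ± 0.20) and SKA1 (1.78 ± 0.33) differed most in this direction. PRC1 (-1.07 ± 0.14), ECT2 (-0.76 ± 0.25), BUB1 (-0.73 ± 0.19) and CENPF (-0.62 ± 0.14) went the other way. In the direct comparison of shRNA2 with shRNA1 0 genes did so. There BUB1, CENPF and ECT2 lay at 0.41, 0.82 and 0.25 and PRC1 at -0.07 (limma adjusted p = 0.551). ECT2 also did not pass with no filter or without any of 3 libraries, scramble for shRNA2 replicate 1, shRNA1 replicate 1 or shRNA2 replicate 2. Across the 59 genes the fold changes of the H929 hairpins had a Pearson correlation of 0.57 and a Spearman correlation of 0.52, a description over genes that share libraries.

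**Figure D5:**
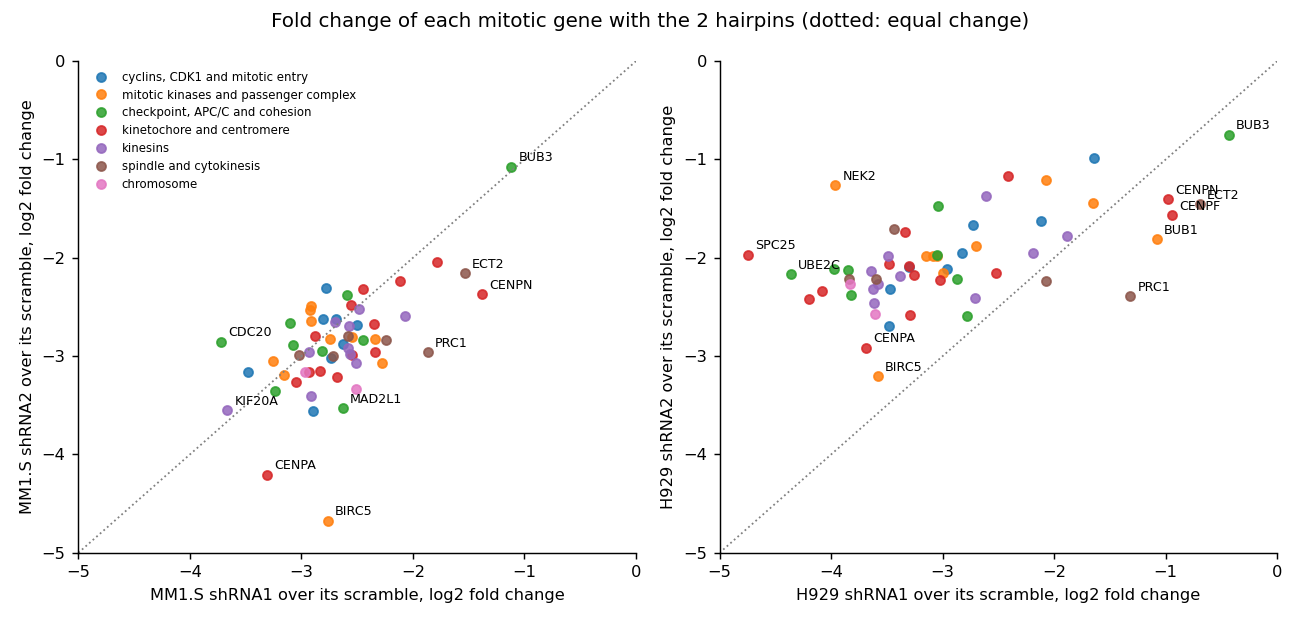
Log2 fold change of each of the 59 genes with shRNA1 (x axis) against shRNA2 (y axis), in MM1.S (left; both comparisons share the scramble libraries) and H929 (right; separate scramble groups). BIRC5 in MM1.S lies at -2.76 and -4.67, and in H929 SPC25 and NEK2 lie furthest above the line of equal change.

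The effect of each hairpin was compared between the lines over 20370 genes with limma, within-table fold changes only, since the tables were normalized separately. For shRNA1, 9 of 59 genes fell more in MM1.S and 15 fell more in H929 (11% and 10.4% of all genes), at a median difference of 0.29. Of the genes that fell more in MM1.S, CENPF, a large kinetochore and nuclear protein, differed most, at -1.60 ± 0.16. It read 474 and 380 CPM in MM1.S scramble and 73.8 and 72.0 with shRNA1, but 698 and 723 against 371 and 366 in H929. INCENP, the scaffold of the passenger complex (-1.30 ± 0.25), BUB1 (-1.18 ± 0.23), CDC25B (-0.87 ± 0.20) and AURKA (-0.84 ± 0.16) also fell more in MM1.S. With the mean of both H929 scramble groups as the control, limma no longer called BUB1 (-0.61, adjusted p = 0.0528), CDC25B (-0.46, 0.0942) or AURKA (-0.23, 0.291). With the scramble groups exchanged it called none of the 5, with CENPF at -0.16 (adjusted p = 0.532), INCENP at -0.49 (0.181) and AURKA at 0.39 (0.0900). SPC25 (1.87 ± 0.33), ANLN (1.61 ± 0.34), CENPK (1.57 ± 0.33), BUB1B (1.41 ± 0.26) and SKA1 (1.36 ± 0.35) fell more in H929. For SPC25 the difference was 0.54 with a pseudocount of 5 and did not pass. The count of 15 was 24 without H929 shRNA1 replicate 2, 9 without MM1.S scramble replicate 2, 8 without H929 shRNA1 replicate 1, 7 without MM1.S shRNA1 replicate 2 and 6 without replicate 2 of the H929 scramble for shRNA1; the count of 9 was 6 without replicate 1 of that scramble or without MM1.S scramble replicate 1.

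For shRNA2, 24 of 59 genes fell more in MM1.S and 0 fell more in H929 by limma, 0 also at an unadjusted p under 0.05 (5.41% and 4.34% of all genes), at a median of -0.84. With the replicate number as a block in both lines the count was 38, although the numbers do not pair the H929 libraries. CDC25B (-1.68 ± 0.20), BIRC5 (-1.44 ± 0.29), PLK1 (-1.31 ± 0.21), AURKA (-1.26 ± 0.16) and TPX2 (-1.26 ± 0.21) differed most. Leaving out 1 library gave 9 (without H929 shRNA2 replicate 2) to 30 (without MM1.S scramble replicate 2). The count was 12 without replicate 2 and 13 without replicate 1 of the H929 scramble for shRNA2, and 15 without MM1.S scramble replicate 1, MM1.S shRNA2 replicate 1 or H929 shRNA2 replicate 1. BIRC5 had an adjusted p of 0.0509 without H929 shRNA2 replicate 2. Both line comparisons moved with the H929 control. With the mean of both scramble groups, 40 genes fell more in H929 and 3 more in MM1.S with shRNA1 (median 1.01), and 56 fell more in MM1.S with shRNA2 (median -1.53). With the groups exchanged these were 50 and 0 (median 1.71) and 59 (median -2.23). Over all genes the medians for shRNA1 and shRNA2 were -0.008 and -0.03 with the mean, and 0.005 and -0.04 with the groups exchanged. The share of all genes called was not counted with these controls.

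Other genes of the mitotic machinery, outside the 59, were also mostly lower. Of 26 other kinetochore and centromere genes, 25 were lower with shRNA1 and 22 with shRNA2 in MM1.S (edgeR), and 17 and 21 in H929 against the own scramble (limma), with medians of -1.72, -1.60, -1.40 and -1.19. CENPI and CENPH, of the constitutive centromere network, were lowest by mean (-2.74 and -3.20 with shRNA1 in MM1.S), whereas MIS12, which links that network to NDC80, was higher in H929 with shRNA1 (0.56 ± 0.11, limma adjusted p = 0.000306). PMF1, in the same complex as MIS12, was higher in H929 with shRNA2 (0.32 ± 0.11, adjusted p = 0.0258, limma). A further list of 31 genes held spindle, kinesin and cytokinesis genes and also regulators of CDK1 such as WEE1 and CDKN3. Of these, 31 and 31 were lower in MM1.S and 28 and 31 in H929, with medians of -2.35, -2.61, -2.44 and -1.84. DLGAP5, a spindle assembly factor, and CDKN3, a phosphatase acting on CDK1, had the lowest means. WEE1, the kinase that holds CDK1 inactive, was lower in MM1.S (-1.76 ± 0.13 and -1.38 ± 0.13) and in H929 with shRNA2 (-1.08 ± 0.10). It was higher in H929 with shRNA1 against its own scramble (0.71 ± 0.10, limma adjusted p = 2.09e-05). With shRNA1 against the other H929 scramble, WEE1 lay at -0.22 and MIS12 at 0.19, and limma called 0 genes of either list higher.

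Condensin and cohesin genes, 13 in all, were lower in 12 and 11 cases in MM1.S and in 9 and 11 in H929, with the condensin subunits NCAPH and NCAPG lowest by mean and the cohesin subunits SMC3 and STAG1 nearest 0. The APC/C list held 15 genes, the core subunits and the coactivator FZR1. In MM1.S 7 were lower and 2 higher with shRNA1, and 4 lower and 1 higher with shRNA2 (edgeR). In H929 2 were lower and 2 higher with shRNA1, and 4 lower and 1 higher with shRNA2 (limma). All genes were lower in 19.7% and 21.7% of cases in MM1.S and in 27.7% and 25% in H929. The counts of lower APC/C genes were thus above the share of all genes with shRNA1 in MM1.S and near or below it elsewhere. Medians of the 15 lay between -0.40 and 0.04. ANAPC11, a catalytic subunit, changed by -0.69 ± 0.22 and -0.94 ± 0.22 in MM1.S, and ANAPC13 by 0.80 ± 0.15 and 0.53 ± 0.15. Against the other H929 scramble with shRNA2, where 21.9% of all genes were lower and 17.6% higher, 6 of 26 other kinetochore genes were lower and 4 higher, shares near those of all genes. There 19 of the 31 spindle, cytokinesis and CDK1 regulator genes were lower. Of 13 condensin and cohesin genes 6 were lower and 1 higher, and 4 of 15 APC/C genes were higher (limma).

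In the authors' deposited tables of the 4 hairpin comparisons all 59 genes also had negative log2 fold changes, with medians of -2.65 and -2.78 in MM1.S and -2.71 and -2.04 in H929. The sizes differed most in H929 with shRNA1, where the median here was -3.15. There SPC25 stood at -3.27 in the authors' values and -4.74 here, and the authors' lowest gene was SKA1 (-3.48). Exons of 18 of the 59 genes overlap an exon of a gene on the opposite strand, PLK1, MAD2L1, CENPN and PRC1 among them. Because no label states whether counting used the strand, reads of such pairs cannot be told apart. For 4 of the 59, CENPA, BUB1B, PRC1 and NUSAP1, an exon overlaps one of another gene on the same strand.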

How the data were processed

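RNA was measured in 14 poly(A)-selected libraries of MM1.S and H929, made with NEBNext Ultra II kits from Nucleospin RNA, per the labels. Per the submitters' processing notes, STAR 2.5.3a, DESeq2 1.24.0 and the build GRCh38 (hg38) were used; the counting tool and annotation are not given in the sources used here. The values deposited for MM1.S are read counts per gene with no scaling, per the file headers. The H929 table is deposited under the same heading but holds normalized signal: each library's counts divided by 1 size factor. Multiplied back, 100% of values were whole within 0.01 read. For each hairpin comparison a table deposited by the authors gives, per the file headers, mean normalized signal, log2 fold change and p-value by gene. The shRNA2 columns of both tables carry the hairpin number 4, not 2, in their names; elimination placed them, and also the second replicate of the shRNA1 scramble in H929.

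The 58051 genes are those left after 18 repeated identifiers were dropped. MM1.S was tested with edgeR 4.0.16 in R 4.3.3 (quasi-likelihood F test, TMM, filterByExpr with a minimum count of 10, 6 libraries in 1 fit, 17820 genes). H929 was tested with limma 3.58.1 (trend) on log2(value + 1), for the 18213 genes with at least 10 in 2 or more libraries, 8 libraries in 1 fit. Line differences used limma over 14 libraries with MM1.S counts divided by median-of-ratios size factors. The Benjamini-Hochberg threshold was 0.05 over all genes tested. The scripts were tested on simulated data. The precision of folds is set by 2 libraries per group.

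The 59 genes, the subgroups and the other lists were chosen with earlier results of these data known. The genes named were 18 given by name, the lowest and highest mean of each subgroup, and up to 5 each way for the hairpin, scramble and line differences. NEK2, SPC25, MAD2L1 and others named only for a difference come from the last part of that rule; all lists were counted whole. Gene positions came from GENCODE 29 and promoters from RefSeq.

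In MM1.S, deviations from the group mean correlated between libraries of equal number (0.571, 0.499 and 0.769 over 11200 genes), which was read as pairing, each value resting on 1 difference per group; in H929 the correlations were -0.167 to 0.204, and the numbers do not pair those libraries. Alternatives were other scalings, DESeq2 1.42.0, no filter, a pseudocount of 5, edgeR on the recovered H929 reads, a replicate block and each library left out. Exchanging or averaging the H929 scramble groups was chosen after seeing the data.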

Additional observations from a re-analysis of the deposited data

Results flagged for a closer look

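The difference between the H929 hairpin effects, each against its own scramble, was tested by limma. It separated 4 genes that fell more with shRNA2 from 40 that fell less, against 21.9% and 20% of all genes. The genes with the largest differences were PRC1 (-1.07), ECT2 (-0.76), BUB1 (-0.73) and CENPF (-0.62) in 1 direction. In the other direction they were SPC25 (2.78), NEK2 (2.70), UBE2C (2.19), CDC20 (1.86) and SKA1 (1.78). The test of the difference between lines passed for 9 of the 59 genes that fell more in MM1.S with shRNA1, against 11% of all genes. They were led by CENPF (-1.60), INCENP (-1.30), BUB1 (-1.18), CDC25B (-0.87) and AURKA (-0.84). The test passed for 15 that fell more in H929 (10.4% of all genes), led by SPC25 (1.87), ANLN (1.61), CENPK (1.57), BUB1B (1.41) and SKA1 (1.36). With shRNA2 it passed for 24 genes that fell more in MM1.S, against 5.41% of all genes. Those were led by CDC25B (-1.68), BIRC5 (-1.44), PLK1 (-1.31), AURKA (-1.26) and TPX2 (-1.26). All values are log2 differences, and all of them use the H929 scramble groups, which differed from each other in all 59 genes.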

How the results depend on the processing

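The falls of all 59 genes with each hairpin against its own scramble, and the difference between the H929 scramble groups, kept their counts under every scaling, filter, pseudocount, tool and block tried; without 1 library they stayed at 59 except for H929 shRNA1, at 58 to 59. Over each count of genes and each alternative or left-out library, 195 stayed within 1.5 times the reported one and 33 moved. The 195 include counts of 0 that stayed 0. For these alternatives the share of all genes called was not counted. With a replicate block, as the pairing in MM1.S allows, the MM1.S hairpin difference held 23 lower and 6 higher. With a block in both lines the shRNA2 line difference held 38 lower, although the numbers do not pair the H929 libraries. The block changed no other count by over 1.5 times. DESeq2 gave 1 higher for the MM1.S hairpin difference and no filter 4, and leaving out 1 library gave 6 to 8 lower and 0 to 3 higher. No filter gave 7 higher for the shRNA1 line difference. EdgeR on recovered reads gave 42 lower for the shRNA2 line difference, where the median of all genes moved to -0.10 and 29.9% of calls were higher in place of 44.5%. With the H929 scramble groups exchanged, the hairpin difference held 0 lower, the shRNA1 line difference 0 lower and 50 higher and the shRNA2 line difference 59 lower. With their mean these were 0, 3, 40 and 56, where the 0 is the direct comparison of the hairpins, since the mean cancels. Against that mean, the median falls in H929 were -3.92 with shRNA1 and -1.38 with shRNA2. Leaving out 1 library gave 30 to 37 for H929 shRNA2 against the other scramble, 3 to 5 lower and 33 to 45 higher for the hairpin difference, 6 to 9 and 6 to 24 for the shRNA1 and 9 to 30 for the shRNA2 line difference. In H929 shRNA2 against the other scramble, AURKA and NDC80, both near 0, ran from -0.0215 (without replicate 1 of the scramble for shRNA1) through -0.00360 (without shRNA2 replicate 2) to 0.0612 and from -0.0125 (without shRNA2 replicate 2) to 0.135 when 1 library was left out. The sign also reversed for AURKA in the shRNA1 line difference with the groups exchanged (0.39). In the H929 hairpin difference, exchanged groups reversed BUB1 (1.55), CENPF (2.26), ECT2 (1.26) and PRC1 (0.93). As for AURKA, these reversals follow from which scramble is subtracted. The direct comparison of the hairpins, with no scramble subtracted, reversed BUB1 (0.41), CENPF (0.82) and ECT2 (0.25). A lone library left in a group was assumed to vary like the other groups. Depth limits SPC25, SKA3 and CENPA, under 10 reads in H929 shRNA1.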
